A study of Mus musculus with 27 samples.

Results

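The 7 genes described here build and hold the postsynaptic side of the neuromuscular junction. They are Agrn (the ligand agrin), Lrp4 (its receptor), Musk (the receptor kinase), Dok7 (the cytoplasmic adaptor of the kinase), Rapsn (the scaffold rapsyn), Ache (acetylcholinesterase) and Colq (the collagen tail that anchors the esterase). They were taken by their symbols, with no threshold on a measured value, and are 7 of the 54532 genes in the deposited table. Each symbol matched a single gene, and all 7 passed the filter on low values (5 or more samples with an FPKM of 0.5 or higher), so that none was left out of the tests. FPKM is the number of fragments per kilobase of gene, scaled by a number of reads per library. Levels can thus be set side by side between genes, while comparisons between samples depend on the number of reads used.

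At the neuromuscular junction, agrin released by the motor nerve terminal binds LRP4 on the muscle surface, and this complex activates MuSK. MuSK is held active by DOK7 inside the fibre, and its signal leads rapsyn to gather acetylcholine receptors into dense clusters beneath the nerve terminal. In the cleft, acetylcholinesterase breaks down the transmitter, and ColQ tethers the enzyme to the basal lamina and to MuSK. In an innervated adult fibre the genes for these proteins are transcribed mostly by the few nuclei under the synapse, and Musk and the receptor subunit genes are known to be expressed along the whole fibre in developing and in denervated muscle. Agrin is made by muscle as well as by nerve, in forms that differ by splicing and that FPKM per gene cannot tell apart.

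The muscles were tibialis anterior of 8-week-old male C57BL/6 mice, with no transgene or deleted allele named for any group. The control group (n = 5) had no injury, and the other groups were explanted 3 days (n = 5), 7 days (n = 6), 14 days (n = 6) or 21 days (n = 5) after volumetric muscle loss (VML), the excision of 40% of the muscle. The paper's methods call the excision bilateral and the public record calls it unilateral, and the labels do not say which muscle of a mouse gave a sample or whether samples of a group came from separate mice, so p-values measure the spread between these samples. All 4 injured groups were compared with the same 5 control samples. Messenger RNA was selected with poly-T beads and sequenced from libraries that do not keep the strand.

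The deposited values held 14376395 to 24436763 reads per sample (median 17398586). The number of reads by which the authors' FPKM was scaled was 0.747 to 1.48 times a sample's own total, on average 0.782 times in the controls, 1.25 on day 3, 1.18 on day 7, 1.04 on day 14 and 0.897 on day 21. Of the 27 samples, 9 lay nearer to the mean profile of another group than to that of their own, and day 3 replicate 5 and day 7 replicate 5 lay nearest to each other's group. Day 7 replicate 3 lay nearest to the controls and day 7 replicate 6 to day 21. In them the receptor subunit gene Chrna1 was at 6.21 and 7.36 FPKM, against 31.9 to 70.5 in the other day 7 samples. These samples held the highest Dok7, Ache and Colq of day 7. In the labelled tissue the summed FPKM of 8 fast myofibre markers was 85767 to 101490 in the controls, and the motor neuron markers Chat, Slc18a3, Isl1 and Mnx1 were at 0 in every control, day 14 and day 21 sample, with a summed FPKM of at most 0.233 elsewhere. In bulk muscle, a change in the number of synaptic nuclei cannot be told apart from a change in RNA per nucleus.

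In the muscles without injury the 7 genes spanned a wide range of levels. Rapsn was the highest at 25.2 ± 3.16 FPKM (SD, n = 5), followed by Ache at 11.6 ± 2.11, Dok7 at 5.12 ± 0.278, Colq at 2.51 ± 0.922, Agrn at 2.06 ± 0.271, Lrp4 at 0.739 ± 0.130 and Musk at 0.386 ± 0.151. In this order the sample ranges of Colq and Agrn overlapped, as did those of Lrp4 and Musk, whereas the other neighbours did not overlap. Over all 27 samples Musk varied the most, 25.7-fold between the lowest and the highest sample, and Ache the least, 2.66-fold.

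Against the muscles without injury, Musk was upregulated on days 3, 7 and 14 and Rapsn was downregulated on days 7 and 14, and no other member passed the test at any time. A gene was called at a Benjamini-Hochberg adjusted p under 0.05 in limma's test of log2(FPKM + 1) over 14630 genes, and log2 fold changes are differences between group means on that scale, which understates the change of low genes. Beside the deposited scaling, 4 others were tried: median ratios between samples, each sample's own total of reads as the denominator (own totals), FPKM brought to the same sum in every sample (a common sum), and quantile normalization, which gives all samples the same distribution. On day 3, 1 of the 7 members was called (higher), where 43.2% of all tested genes were called (23.4% higher and 19.8% lower). On day 7, 2 members were called, 1 in each direction, against 29.4% of all genes (15% higher and 14.4% lower). On day 14 there were again 2, 1 in each direction, against 20.3% (9.02% higher and 11.3% lower). On day 21, 0 of 7 were called, against 3.43% (1.74% higher and 1.69% lower), and Musk and Dok7 had an unadjusted p under 0.05. With 7 genes, these counts were within about 1 gene of the share of all genes on days 7, 14 and 21 and below it on day 3. The median log2 fold change of the 7 members was 0.09, 0.08, 0.18 and 0.29 on days 3, 7, 14 and 21, beside 0.01, 0.03, 0.02 and 0.01 over all tested genes.

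**Figure D1:**
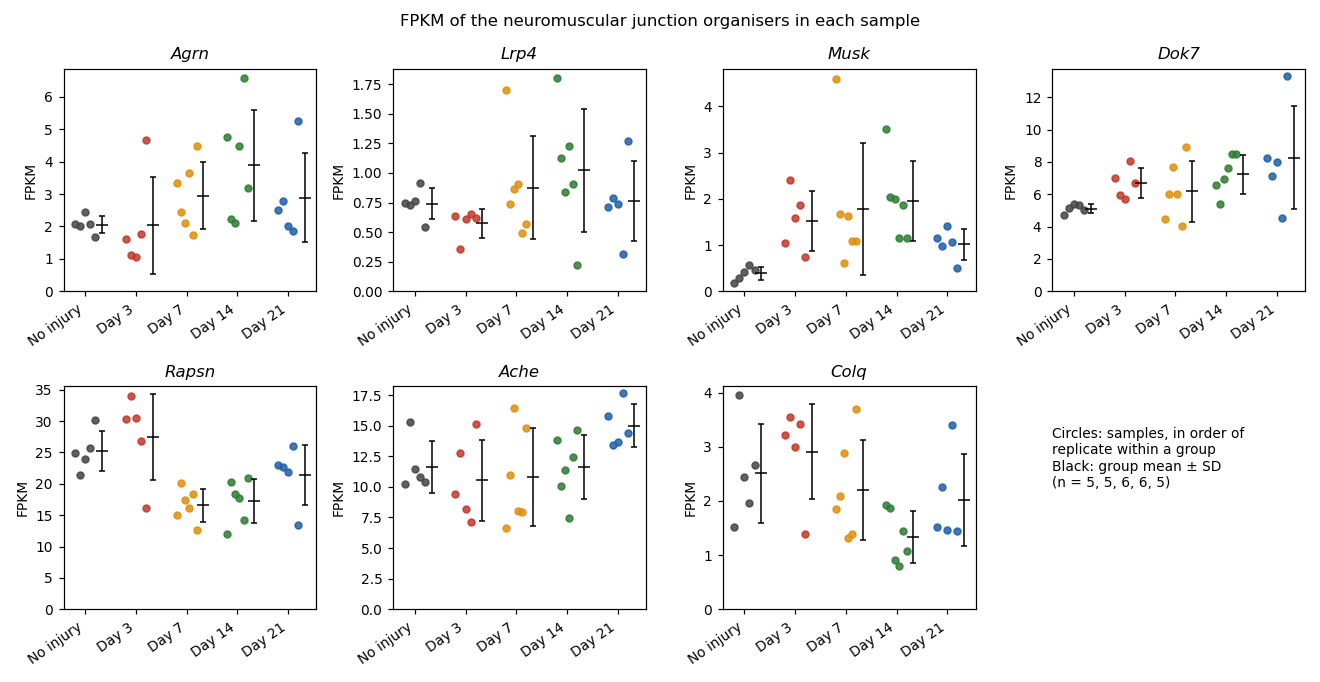
FPKM of the 7 genes in each of the 27 samples, by group, with the mean ± SD in black on axes that start at 0. Musk lies above every control sample on days 3, 7 and 14, and Rapsn lies below every control sample on days 7 and 14.

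**Figure D2:**
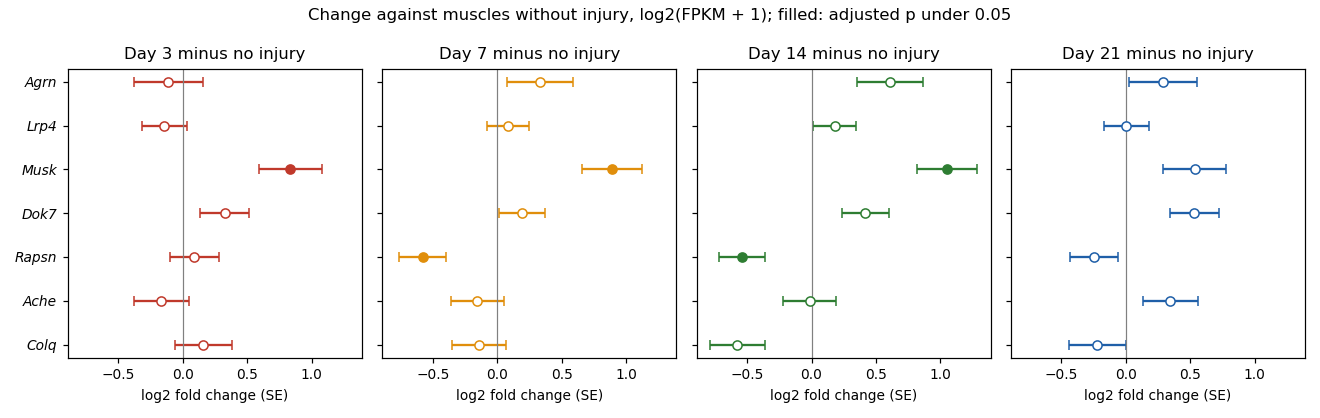
Log2 fold change with its SE for each gene at 4 times after VML against the muscles without injury, on log2(FPKM + 1). Filled points have an adjusted p under 0.05, namely Musk on days 3, 7 and 14 and Rapsn on days 7 and 14.

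Agrn (ENSMUSG00000041936) spans chromosome 4, 156165290 to 156197488 on the minus strand of GRCm38. Its level was 2.08, 2.02, 2.44, 2.06 and 1.68 FPKM in the 5 muscles without injury. On day 3 the samples held 1.62, 1.11, 1.05, 1.78 and 4.65 FPKM, so that replicate 5 stood above all controls and 3 of the other samples below all of them. On day 7 Agrn ranged from 1.73 to 4.49 FPKM (median 2.88) and on day 14 from 2.10 to 6.56 (median 3.83), with 3 and 4 of 6 samples above all controls. On day 21 the values were 2.51, 2.78, 2.01, 1.86 and 5.24 FPKM. The coefficient of variation of agrin RNA was 13.2% in the controls and 35.3% to 73.1% in the injured groups, a difference in spread that was not tested. Its log2 fold change was -0.11 ± 0.27 (SE), 0.33 ± 0.25, 0.61 ± 0.25 and 0.29 ± 0.27 on days 3, 7, 14 and 21, with adjusted p of 0.766, 0.335, 0.0894 and 0.586 (limma). On day 14, where the mean was 3.89 ± 1.72 FPKM (SD, n = 6) against 2.06 ± 0.271, an exact two-sided permutation test gave p = 0.0303. Dropping single samples moved this day 14 change of Agrn between 0.47 and 0.72. The adjusted p of limma then lay between 0.0459, without day 14 replicate 3, and 0.222. No other single omission brought Agrn under the threshold on day 14.

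Lrp4 (ENSMUSG00000027253; chromosome 2, 91457511 to 91513779, plus strand) was not called at any time. The controls held 0.743, 0.730, 0.763, 0.913 and 0.546 FPKM, from 84 to 132 reads. On day 3 the 5 values were 0.634, 0.355, 0.613, 0.656 and 0.617, of which 1 lay below all controls. Days 7 and 14 ranged from 0.489 to 1.70 (median 0.800) and from 0.226 to 1.80 (median 1.02). The receptor therefore spread to both sides of the control range on day 14, where 3 of 6 samples lay above all controls and 1 below. On day 21 Lrp4 was at 0.711, 0.787, 0.738, 0.317 and 1.27 FPKM. Its log2 fold change was -0.14 ± 0.17 (SE), 0.08 ± 0.17, 0.18 ± 0.17 and 0.0029 ± 0.17 at the 4 times, with adjusted p of 0.537, 0.735, 0.461 and 0.998.

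Musk (ENSMUSG00000057280) spans chromosome 4, 58285960 to 58374303, on the plus strand of GRCm38. The 250 bases upstream of its RefSeq start site are shown with those of Dok7, the adaptor of the same kinase, and of Ache. Neither of these 2 was called in the fit of all groups with the deposited scaling. Capitals mark E-boxes (CANNTG, a pattern that matches on both strands alike), the motif that bHLH factors, myogenic ones among them, are known to bind. Musk lies at chr4:58285712-58285961 (plus strand), Dok7 at chr5:35056516-35056765 (plus strand, the first of its start sites) and Ache at chr5:137288004-137288253 (plus strand), all 5′ to 3′ on GRCm38.p6.
Musk: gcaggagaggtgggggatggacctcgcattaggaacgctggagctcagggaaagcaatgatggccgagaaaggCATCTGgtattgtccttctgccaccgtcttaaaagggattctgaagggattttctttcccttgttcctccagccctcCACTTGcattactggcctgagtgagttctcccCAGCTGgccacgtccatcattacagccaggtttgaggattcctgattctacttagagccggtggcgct
Dok7: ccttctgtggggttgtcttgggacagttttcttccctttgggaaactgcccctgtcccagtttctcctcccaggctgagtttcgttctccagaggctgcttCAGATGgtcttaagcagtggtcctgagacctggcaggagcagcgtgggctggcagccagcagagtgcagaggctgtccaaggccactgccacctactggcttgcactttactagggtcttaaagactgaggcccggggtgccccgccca
Ache: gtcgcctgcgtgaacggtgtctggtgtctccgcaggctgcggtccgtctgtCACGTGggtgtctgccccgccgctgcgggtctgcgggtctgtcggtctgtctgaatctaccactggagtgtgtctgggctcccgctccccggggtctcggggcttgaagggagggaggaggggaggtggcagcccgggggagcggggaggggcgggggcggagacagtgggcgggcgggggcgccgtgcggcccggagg
The Musk window held 3 E-boxes, with first bases 177, 100 and 68 bases upstream of the start, whereas the Dok7 and Ache windows shown held 1 each, at 149 and 199 bases. Of 32851 promoter windows of this length in the RefSeq table, 66.2% held at least 1 E-box and 12.2% held 3 or more. Start sites in the table were matched for 4 of the 7 members, Agrn, Musk, Dok7 and Ache, with 6 windows in all. An E-box was found in 4 of these 6 windows, and an N-box (CCGGAA on either strand), a motif of synaptic promoters, in 0, beside 12.03% of all windows. These matches describe letters in the windows and were not tested against expression.

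Musk RNA was scarce in the muscles without injury, at 0.179, 0.292, 0.429, 0.559 and 0.470 FPKM from 9 to 26 reads. On day 3 the 5 samples held 1.04, 2.40, 1.58, 1.86 and 0.747 FPKM, all above the highest control. On day 7 Musk ranged from 0.622 to 4.59 FPKM (median 1.36). On day 14 it ranged from 1.15 to 3.51 FPKM (median 1.93), so that neither group overlapped the controls. On day 21 the values were nearer to the controls, at 1.16, 0.975, 1.41, 1.06 and 0.498 FPKM, and replicate 5 lay within the control range. The mean FPKM was 3.95, 4.62, 5.07 and 2.64 times that of the controls on days 3, 7, 14 and 21. On log2(FPKM + 1) the rise was 0.83 ± 0.24 (SE) on day 3, 0.89 ± 0.23 on day 7 and 1.05 ± 0.23 on day 14, with adjusted p of 0.00763, 0.00651 and 0.00332 (limma). On day 21 it was 0.53 ± 0.24, with an adjusted p of 0.223 that missed the threshold. Musk was called on day 21 when only the 2 groups compared entered the fit (adjusted p = 0.0304, limma). It was also called there with sample quality weights (adjusted p = 0.0118).

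The kinase was called on these 3 days without any one of the libraries. Exact two-sided permutation tests gave p = 0.00794 on day 3, 0.00433 on day 7, 0.00216 on day 14 and 0.0159 on day 21, where the smallest p possible is 0.00794 for 5 against 5 samples and 0.00216 for 6 against 5. Day 7 replicate 1 held by far the most Musk, 4.59 FPKM against 1.68 in the next sample of its group, and without it the log2 fold change on day 7 was 0.66 with an adjusted p of 0.0155. The adjusted p was under the threshold on days 3, 7 and 14 in each alternative computed, with a highest value of 0.0456. Because the controls were near the pseudocount, the size of the change depended on it: with weights from the recovered reads in place of a pseudocount, the log2 fold change on day 14 was 2.37. Of all tested genes, 19.8%, 7.25% and 7.67% lay wholly above the controls on days 3, 7 and 14, as Musk did. Dok7 did so too on day 3.

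Genes of regenerating fibres were higher after injury too. The median log2 fold change of the markers below was 4.42, 2.78, 2.95 and 1.57 on days 3, 7, 14 and 21. It was largest on day 3, whereas that of Musk was largest on day 14. Musk itself changed by 0.06 from day 3 to day 7 and by 0.16 from day 7 to day 14. Neither change was called (adjusted p of 0.942 and 0.795, limma). The summed FPKM of 6 markers of regenerating fibres and myoblasts, among them the embryonic and perinatal myosins Myh3 and Myh8 and the fusion gene Mymk, was 20.1 to 31.1 in the controls, 212 to 521 on day 3, 26.99 to 358.9 on day 7, 113 to 221 on day 14 and 53.1 to 156 on day 21. All 6 were called higher on days 3, 7 and 14, and 3 of 6 on day 21, but on that day 0 of 6 with a common sum and 1 of 6 with own totals. Their part in the rise of Musk was not tested.

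Dok7 (ENSMUSG00000044716; chromosome 5, 35056766 to 35087839, plus strand) was the steadiest member in the controls, at 4.71, 5.12, 5.40, 5.34 and 5.02 FPKM. On day 3 it was at 7.02, 5.98, 5.74, 8.03 and 6.69 FPKM, all above the highest control. On day 7 it ranged from 4.01 to 8.92 (median 6.00), with 4 of 6 samples above all controls and 2 below. On day 14 the range was 5.39 to 8.47 (median 7.27), with 5 of 6 above. On day 21 the adaptor reached its highest mean, 8.25 ± 3.18 FPKM (SD, n = 5) against 5.12 ± 0.278, from samples at 8.23, 7.13, 8.01, 4.56 and 13.3. The log2 fold change was 0.32 ± 0.19 (SE), 0.19 ± 0.18, 0.42 ± 0.18 and 0.53 ± 0.19 on days 3, 7, 14 and 21. None passed in limma, which pools the spread of all 5 groups, with adjusted p of 0.176, 0.448, 0.101 and 0.112. When only the 2 groups compared entered the fit, the adjusted p was 0.0189 on day 3 and 0.0214 on day 14. Dok7 was not called in that fit on days 7 and 21. With each sample left out of the fit of all groups in turn, the change on day 21 ran from 0.36 to 0.70. The adjusted p there ran from 0.0345, without day 21 replicate 4, to 0.331. Exact permutation tests, which also use only the 2 groups, gave p = 0.00794 on day 3, 0.303 on day 7, 0.00649 on day 14 and 0.0476 on day 21.

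Rapsn (ENSMUSG00000002104; chromosome 2, 91035620 to 91045729, plus strand) was the member called lower, on days 7 and 14 with the deposited scaling. The controls held 24.9, 21.5, 23.9, 25.7 and 30.1 FPKM. On day 3 the scaffold was still at 30.3, 34.0, 30.5 and 26.8 FPKM in 4 samples, and at 16.1 in replicate 5. Over all tested genes, the group mean nearest to that replicate was the one of day 7. On day 7 Rapsn ranged from 12.7 to 20.2 FPKM (median 16.7), and on day 14 from 11.9 to 20.9 (median 18.1). Every sample of days 7 and 14 was thus below the lowest control, as were 5.37% and 8.05% of all tested genes. On day 21 the samples held 23.1, 22.8, 21.9, 26.0 and 13.4 FPKM, 4 of them back within the control range.

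The log2 fold change of Rapsn was 0.09 ± 0.19 (SE) on day 3, -0.58 ± 0.18 on day 7, -0.54 ± 0.18 on day 14 and -0.25 ± 0.19 on day 21. The adjusted p was 0.734, 0.0179, 0.0352 and 0.484 (limma), and the exact permutation p was 0.675, 0.00433, 0.00649 and 0.183. On day 7 the call was lost without control replicate 5 (adjusted p = 0.0525). On day 14 it was lost without any one of control replicates 1, 3, 4 and 5 or day 14 replicates 1, 4 and 5, with adjusted p between 0.0520 and 0.0950, and with quantile normalization, where the change was -0.33 (adjusted p = 0.138). In the reads, an exon of Rapsn overlaps the antisense gene Gm13778, which averaged 2.01 FPKM, and without strand both cannot be separated there.

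Myofibre markers were also called lower after injury with the deposited scaling. Of 8 fast fibre markers, 7 were called lower on day 3, 3 on day 7, 1 on day 14 and 0 on day 21, and their summed FPKM was 22176 to 64791 on day 3 and 27815 to 101990 on day 7 beside 85767 to 101490 in the controls. These calls depended on scaling: on day 3 there were 3 lower with a common sum, 5 with own totals and 2 with quantile normalization, and on day 7 there were 0 under each of these and 0 without both replicate 5 samples of days 3 and 7. Rapsn was not lower on day 3, when these markers were at their lowest. Their part in its fall on days 7 and 14 was not tested.

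Ache (ENSMUSG00000023328; chromosome 5, 137287519 to 137294466, plus strand) was not called at any time with the deposited scaling. It was at 10.2, 15.3, 11.5, 10.8 and 10.4 FPKM in the controls and at 9.45, 12.7, 8.17, 7.15 and 15.1 on day 3. It ranged from 6.63 to 16.4 (median 9.48) on day 7 and from 7.45 to 14.6 (median 11.9) on day 14. On day 21 the esterase was at 15.8, 13.4, 13.7, 17.6 and 14.4 FPKM, above 4 of the 5 controls in every sample, and 2 of the samples exceeded all controls. The log2 fold change was -0.17 ± 0.21 (SE), -0.15 ± 0.20, -0.01 ± 0.20 and 0.35 ± 0.21 on days 3, 7, 14 and 21, with adjusted p of 0.566, 0.600, 0.969 and 0.380 in limma and an exact permutation p of 0.0317 on day 21. An exon of Ache overlaps the antisense gene Gm42456, which averaged 0.205 FPKM.

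Colq (ENSMUSG00000057606; chromosome 14, 31523082 to 31591343, minus strand) was lowest on day 14. Its controls held 1.52, 3.96, 2.44, 1.97 and 2.66 FPKM. Day 3 held 3.21, 3.55, 2.99, 3.42 and 1.38 FPKM, with replicate 5 again apart from the rest. Day 7 ranged from 1.31 to 3.69 FPKM (median 1.97). On day 14 the samples lay between 0.797 and 1.93 FPKM (median 1.26), from 48 to 163 reads, and 4 of 6 were below every control. On day 21 the values were 1.53, 2.25, 1.46, 3.41 and 1.44 FPKM. The log2 fold change was 0.16 ± 0.22 (SE), -0.14 ± 0.21, -0.58 ± 0.21 and -0.22 ± 0.22, with adjusted p of 0.602, 0.651, 0.0557 and 0.620 (limma). On day 14 the mean was 1.34 ± 0.486 FPKM (SD, n = 6) against 2.51 ± 0.922, and the exact permutation p was 0.0216. The adjusted p there crossed the threshold in 12 of 26 alternatives, to 0.0418 with a pseudocount of 0.1 and to 0.0384, 0.0444 and 0.0436 without control replicate 1 or day 14 replicates 1 or 2. With a common sum the change was -0.24 (adjusted p = 0.498) and with own totals -0.30 (adjusted p = 0.333), or -0.53 and -0.55 relative to the median of all genes. The predicted gene Gm49387 overlaps an exon of Colq on the same strand and is listed at 0 in all samples.

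The direction of several small changes depended on how samples were scaled to each other. When each sample's own total of reads was the denominator, the median of all tested genes moved to 0.40 above the controls on day 3, 0.36 on day 7, 0.25 on day 14 and 0.12 on day 21, and when FPKM was rescaled to a common sum it moved to 0.51, 0.48, 0.29 and 0.12. Of the 14630 tested genes, own totals called 6534, 5348 and 2275 higher on days 3, 7 and 14. A common sum called 6868, 6304 and 1678 higher, so such calls were frequent among all genes. Musk stayed higher and was called on days 3, 7 and 14 under both, 0.71, 0.77 and 0.94 above the shifted median with own totals and 0.70, 0.77 and 0.94 with a common sum. Rapsn on day 7 was -0.05 with own totals (adjusted p = 0.868) and 0.12 with a common sum (adjusted p = 0.723), so its fall held only relative to the shifted median, by -0.41 and -0.36. On day 14 it was -0.16 and -0.08, or -0.40 and -0.37 relative to the median. On day 3, where Rapsn was not called with the deposited scaling, it was called higher under both, by 0.73 and 0.89. Dok7 was called higher on days 3, 7 and 14 under both scalings, by 0.49, 0.29 and 0.50 above the median with own totals. Agrn was called higher under both on day 7 (limma adjusted p of 0.038 and 0.019) and day 14 (0.026 and 0.030). On day 3 Ache (0.041 and 0.0225) and Colq (0.025 and 0.018) were called higher under both. They lay 0.04 and 0.23 above the median with own totals. Ache was also called higher on day 7 with a common sum (adjusted p = 0.0434).

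**Figure D3:**
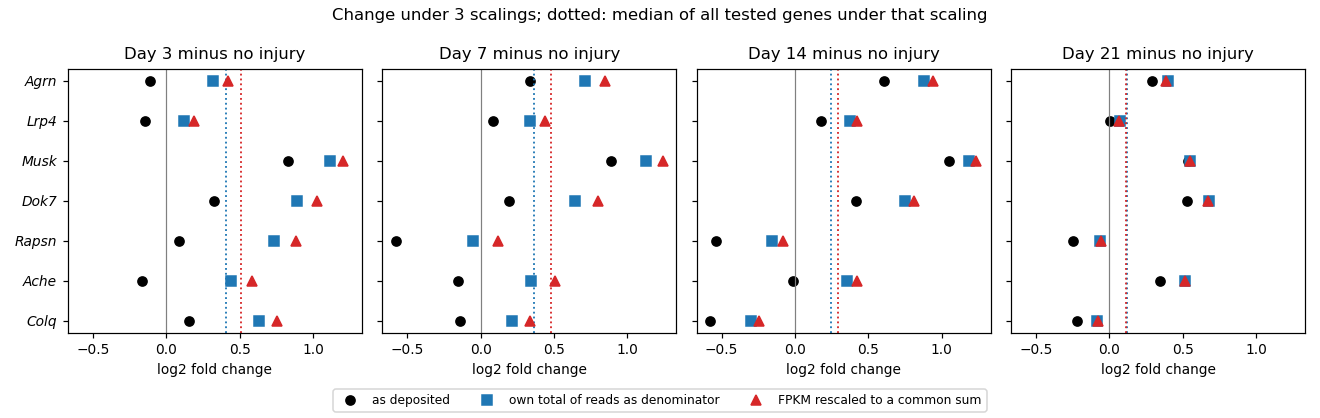
Log2 fold change of the 7 genes at each time with the deposited scaling (black), with each sample's own total of reads (blue squares) and with a common sum of FPKM (red triangles); dotted lines mark the median of all tested genes under both rescalings. Most points shift with the median, and Musk stays to the right of it at every time.

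Between consecutive times after injury no member was called. From day 3 to day 7, 0 of 7 members were called, where 0.0478% of all tested genes were (7 genes, but 730 without day 3 replicate 5 and 1792 without day 7 replicate 5). Rapsn changed the most, by -0.67 ± 0.18 (SE), with an unadjusted p of 0.000979, an adjusted p of 0.0760 in limma and an exact permutation p of 0.013. Without day 3 replicate 5 its change was -0.84 (adjusted p = 0.00907) and without day 7 replicate 5 it was -0.70 (adjusted p = 0.0136), so that these libraries decided the call. From day 7 to day 14, 0 members were called beside 0.335% of all genes, and Colq changed by -0.43 ± 0.20 (adjusted p = 0.387, unadjusted p = 0.0413). From day 14 to day 21, 0 members and 0% of all genes were called, 909 genes had an unadjusted p under 0.05, and among the members this was Musk, at -0.52 ± 0.23 (adjusted p = 0.757, unadjusted p = 0.0355). No member lay wholly above or below the controls on day 21, beside 5.26% and 5.13% of all genes, and none wholly below on day 3, beside 16.5%.

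Ratios within a sample do not depend on the scaling between samples and are given as descriptions. The ratio of Musk to Lrp4, the kinase to its co-receptor, had a geometric mean of 0.491 in the controls (0.241 to 0.861), 2.50 on day 3, 1.80 on day 7, 2.09 on day 14 and 1.38 on day 21. All 5 samples of day 3 and all 6 of day 14 exceeded the controls, as did 5 of 6 on day 7 and 4 of 5 on day 21. The ratio of agrin to Musk was 5.70 in the controls and 1.23, 1.93, 1.97 and 2.77 after injury, below all controls in 4 of 5, 5 of 6, 5 of 6 and 4 of 5 samples. The ratio of Ache to Colq, the enzyme to its tail, was 4.83 in the controls (3.87 to 6.71), 3.66 on day 3, 4.96 on day 7, 9.01 on day 14 (5.42 to 13.7) and 7.85 on day 21, and lay above all controls in 5 of 6 samples on day 14. The ratio of Rapsn to Chrna1, the receptor subunit alpha that rapsyn clusters, was 6.72 in the controls (4.20 to 8.498) and 0.703, 0.619, 0.383 and 0.759 after injury. Each of the 22 injured samples lay below the lowest control in this ratio, the highest of them at 2.80.

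The members did not vary as a unit. Over the 27 samples the correlation between pairs of members on log2(FPKM + 1) ranged from -0.86 to 0.51, and these samples share group differences and the scaling of their library. The strongest was the opposition of Agrn and Rapsn (r = -0.86), which was as strong with the group means removed (r = -0.86). In day 3 replicate 5, day 21 replicate 5 and day 14 replicate 5 Agrn was highest of its group, at 4.65, 5.24 and 6.56 FPKM, where Rapsn was at 16.1, 13.4 and 14.2. Agrn with Dok7 reached r = 0.51 and Agrn with Lrp4 0.49. Musk with the receptor subunit gene Chrna1 reached 0.81 over all samples and 0.66 with group means removed.

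**Figure D4:**
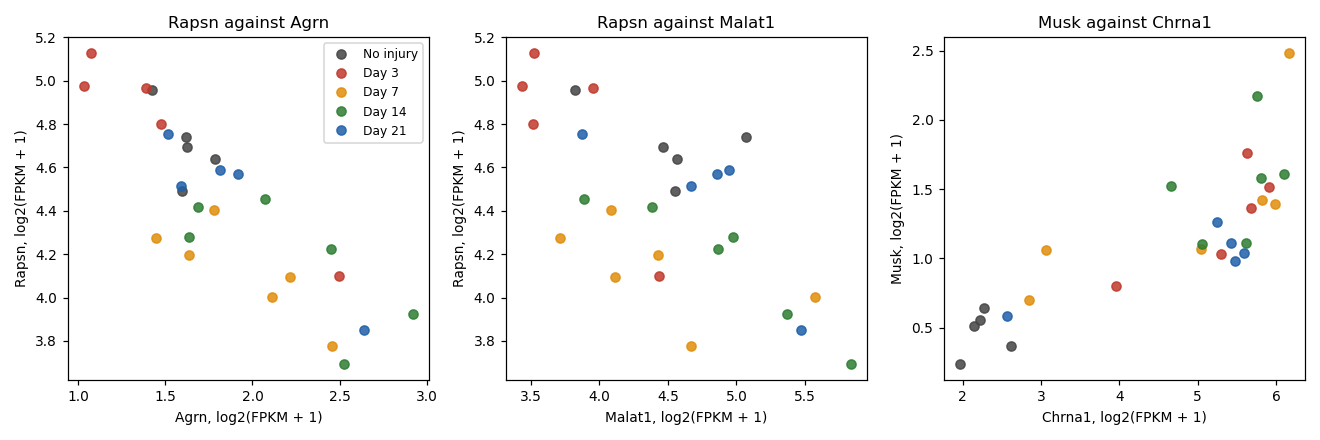
Each point is 1 of the 27 samples, on log2(FPKM + 1), coloured by group. Rapsn falls as Agrn rises (r = -0.86) and as the nuclear RNA Malat1 rises (r = -0.69), and Musk rises with the receptor subunit Chrna1 (r = 0.81).

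The genes most like each member over the 27 samples were found by Pearson correlation among all tested genes. For Agrn they were Ccnl2, a cyclin of the splicing machinery (r = 0.93), Cpsf7 (0.90) and Dock6 (0.89). For Lrp4 they were Kdm5d (0.85), A930033H14Rik (0.84) and Rbm26 (0.84), and for Musk they were Gprc5b (0.86), Ccdc141 (0.85) and Usp20 (0.85). Dok7 was nearest to Ip6k2 (0.76), Gm15892 (0.74) and Gdpd3 (0.74), and Rapsn to Prdx6 (0.85), the mitochondrial chaperonin gene Hspe1 (0.83) and Rsl24d1 (0.82). Ache was nearest to Ufsp1 (0.83), which starts 162 bases past the end of Ache on the same strand, and then to Hhatl (0.79) and Apobec2 (0.76). Reads that run past the end of Ache could be counted to Ufsp1, and this was not tested. Colq had the weakest neighbours, Dnph1 (0.70), AC131339.2 (0.69) and Mettl16 (0.68).

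The nuclear-retained RNAs Malat1 and Neat1, which were chosen after the values of Agrn and Rapsn had been seen, moved with both members. Malat1 had r = 0.69 with Agrn, 0.78 with Lrp4 and -0.69 with Rapsn over 27 samples, and 0.64, 0.79 and -0.74 with group means removed. Neat1 had r = 0.69 with Agrn, 0.25 with Lrp4 and -0.57 with Rapsn, and 0.64, 0.05 and -0.53 with group means removed. Neat1 was called lower on day 3 (-0.90, adjusted p = 0.0390, limma). Malat1 ranged from 13.1 to 32.5 FPKM in the controls, 9.86 to 20.7 on day 3, 12.1 to 46.7 on day 7, 13.8 to 55.9 on day 14 and 13.7 to 43.2 on day 21, and Malat1 was not called at any time, with adjusted p of 0.0949, 0.906, 0.413 and 0.706. The part of RNA quality or nuclear RNA content in the values of Agrn, Lrp4 and Rapsn was not tested.

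The acetylcholine receptor subunits, which the members cluster, had the largest median change of the 6 pathway lists. Of the 5 subunit genes, 3 were called higher on day 3 and 4 on days 7, 14 and 21, with 0 lower. The median log2 fold change of the 5 was 2.32, 2.16, 3.00 and 2.55 at the 4 times. Chrna1 (alpha) rose from 3.79 ± 0.811 FPKM (SD, n = 5) to 42.0 ± 17.1 on day 3 and 34.96 ± 17.17 on day 21. Chrng, the gamma subunit of the fetal receptor, was at 0.0599 ± 0.0502 FPKM in the controls, 1 of them listed at 0, and at 16.8 ± 8.64 on day 3, 5.84 ± 4.34 on day 7, 7.57 ± 1.32 on day 14 and 8.74 ± 3.62 on day 21. Chrnd (delta) and Chrnb1 (beta) rose too, with log2 fold changes of 3.04 and 1.47 on day 14, and Chrne, the epsilon subunit of the adult receptor, was at -1.06 ± 0.45 (SE) on day 3 with an adjusted p of 0.0582. When a common sum was used, 1 subunit in place of 4 was called on day 21.

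Of 23 tested partners of agrin and MuSK signalling, 9 were called higher and 5 lower on day 3, 6 and 4 on day 7, 6 and 2 on day 14, and 1 and 1 on day 21. Their median log2 fold change was 0.17, 0.07, 0.05 and 0.08. Cttn (cortactin, a regulator of actin) rose from 5.06 ± 0.630 to 12.9 ± 2.09 FPKM on day 3 (log2 fold change 1.19, adjusted p = 2.4e-06, limma). Cdk5r1, the activator of the kinase Cdk5, was at 0.0807 ± 0.120 FPKM in the controls and 1.41 ± 0.451 on day 3, and the kinases Fyn and Pak1 were higher by 0.87 and 0.98 on the log2 scale. Pak1 was the partner called higher on day 21, by 0.96 (adjusted p = 0.0124). With own totals or a common sum 0 were called lower at any time, 14 were called higher on day 3, and 0 were called on day 21, where the call of Pak1 was lost. Calls over all 14630 genes were also mostly higher on day 3 under these scalings. They were 6534 higher and 618 lower with own totals, and 6868 and 322 with a common sum.

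The neuregulin receptors Erbb2 and Erbb3 were the called genes among 7 tested genes of the neuregulin pathway and synaptic transcription, both on days 3 and 7 and Erbb2 on day 14, and 0 of 7 were called on day 21. With a common sum 4 and 5 of the 7 were higher on days 3 and 7, with own totals 4 and 3, and with quantile normalization 0 were called on days 7 and 14. Over all genes, a common sum called 6868 and 6304 higher on days 3 and 7, and own totals called 6534 and 5348. On day 3 the log2 fold changes of Erbb2 and Erbb3 were 0.71 and 0.76 (adjusted p of 0.00420 and 0.00186, limma). Of 13 tested genes of the cleft matrix and its receptors, 5 were called higher at each of days 3, 7 and 14 and 1 on day 21, with 1 lower on day 3, where own totals and a common sum each gave 10 higher and 0 lower. Quantile normalization left 3, 2 and 2 higher on days 3, 7 and 14, and under all 3 of these scalings 0 were called on day 21. Itga7, the laminin-binding integrin of muscle, rose from 11.3 ± 1.43 to 29.03 ± 10.26 FPKM on day 3, and the nidogen gene Nid1 was higher by 1.10 on the log2 scale on day 7. Nid2 was higher by 0.84 on day 7, and Itgb1 by 0.68 on day 3.

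Among 9 tested genes of the postsynaptic dystrophin complex, 2 were called higher and 2 lower on days 3 and 7, 1 and 2 on day 14, and 0 and 1 on day 21, but a common sum left 1 lower call on day 7 and 0 on the other days, and quantile normalization gave 5 lower on day 3. Nos1, neuronal nitric oxide synthase, was lower at all 4 times, from 10.8 ± 1.97 FPKM (SD, n = 5) in the controls to 3.75 ± 1.14 on day 3 and 4.83 ± 1.75 on day 21, with log2 fold changes of -1.33, -1.49, -1.18 and -1.05. The syntrophin genes Sntb1 and Sntb2 were higher, by 1.08 and 0.45 on day 3. Of the 3 cholinesterase partners, Prima1, the anchor of acetylcholinesterase in membranes, was called lower on days 3 and 14 (-0.80 and -0.83), and 0 were called on days 7 and 21. A common sum gave 0 lower calls at any time, and 1 higher on each of days 3 and 7, whereas quantile normalization gave 2 lower on each of these days.

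Markers of other cells in the muscle also moved. Of 5 macrophage markers, 5, 4, 2 and 0 were called higher on days 3, 7, 14 and 21, and of 5 fibroblast markers 4, 4, 4 and 2, the last being 0 with quantile normalization, own totals or a common sum. Of 5 endothelial markers 2 were called lower on day 3 and 1 at each later time. Of 6 tested Schwann cell markers 0 were called at any time, while their summed FPKM ranged from 18.7 to 161 in the controls, 7.05 to 14.7 on day 3 and 2.53 to 813 on day 7. The part of these shifts in the values of the 7 members was not tested.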

How the data were processed

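Gene levels in 27 tibialis anterior muscles were taken from 1 table of FPKM, which the authors deposited after alignment and counting per gene (HISAT2 2.0.5 and featureCounts 1.5.0-p3 in the submitters' processing notes). The genome build is not given in the sources used here, and 98.3% of 54409 genes had the coordinates of GENCODE M21 on GRCm38. FPKM times gene length gave whole reads for 100% of values (within 0.1), and 0 value columns were unused. Groups came from sample titles.

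Genes at 0.5 FPKM or more in 5 or more samples entered the fit, on log2(FPKM + 1), by limma 3.58.1 (R 4.3.3) using a variance trend and all groups in one fit. All 7 comparisons were two-sided and adjusted by Benjamini-Hochberg. Members were also compared by 49 exact permutation tests over samples, given without adjustment between them. The fit was tested on simulated data. Tables and figures used Python 3.11.15, pandas 2.3.3, numpy 2.4.6, scipy 1.17.1 and matplotlib 3.10.9.

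Members and gene lists were chosen with earlier results of these data known. Text names members, up to 4 called genes of each pathway list with the largest change, and the 3 genes most correlated with each member. 1 gene that this rule names is not reported here. Myh3, Myh8, Mymk, Malat1, Neat1, Chrne and the motor neuron markers were named outside this rule, after their values were seen. Alternatives were other pseudocounts, filters, scalings, weights, blocks and samples left out.

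Samples with the same replicate number deviated together in 15 of 51 pairs (r over 0.1), so the numbers were not taken to pair samples.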

Additional observations from a re-analysis of the deposited data

Results flagged for a closer look

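In 35 groups of samples (7 genes in 5 groups), 1 sample stood far from the others of its group in 7, by Dixon's test at the 95% level, which chance alone passes in about 1 of 20 groups. Agrn was far above the rest in day 3 replicate 5, at 4.65 FPKM against 1.78 in the next sample, and in day 21 replicate 5, at 5.24 against 2.78. Lrp4 was far below in day 3 replicate 2, at 0.355 FPKM against 0.613, and far above in day 7 replicate 1, at 1.70 against 0.904. Musk was far above in the same day 7 replicate 1, at 4.59 FPKM against 1.68. Ache was far above in control replicate 2, at 15.3 FPKM against 11.5. Colq was far below in day 3 replicate 5, at 1.38 FPKM against 2.99. Day 3 replicate 5, which carried 2 of these values, lay nearer to the mean profile of day 7 than to that of any other group.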

How the results depend on the processing

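Of 793 values of members recomputed under the alternatives, 710 kept their direction and side of the threshold, 41 crossed to an adjusted p under 0.05, 13 lost it and 29 reversed. The cause of these changes was not tested. The number of members called was 1 on day 3, and became 5 with a common sum, 5 with own totals of reads, 2 with sample quality weights and 2 when the fit held just the 2 groups. Of the 14630 tested genes, 7190, 7152, 8251 and 7246 were called in these fits, in that order. On day 7 the number of members called was 2, and 4 with a common sum, where 6513 of all genes were called. On day 14 it was 2, and became 1 with no filter, 4 with quality weights, 4 with only the 2 groups and 4 without both day 3 replicate 5 and day 7 replicate 5 (a choice made after seeing the data). On day 21 it was 0, and became 1 with own totals, 2 with quality weights and 1 with only the 2 groups. From day 3 to day 7 it was 0, and 2 with quality weights or without both samples. With each replicate left out in turn it was 1 to 1 on day 3, 1 to 2 on day 7, 1 to 3 on day 14, 0 to 1 on day 21 and 0 to 1 from day 3 to day 7.

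Reversed values came with a common sum for Agrn (0.42), Lrp4 (0.19) and Ache (0.59) on day 3, Rapsn (0.12), Ache (0.50) and Colq (0.33) on day 7 and Ache (0.42) on day 14. With own totals they were Agrn (0.32), Lrp4 (0.12) and Ache (0.44) on day 3, Ache (0.34) and Colq (0.22) on day 7 and Ache (0.35) on day 14. With quantile normalization they were Colq on day 3 (-0.015), Lrp4 on day 7 (-0.069), Ache on day 14 (0.12) and Lrp4 on day 21 (-0.080). Lrp4 on day 21 also reversed with pseudocounts of 0.1 (-0.040) and 0.5 (-0.0066), read-based weights (-0.091) and quality weights (-0.026). With a replicate left out, reversals fell within -0.36 to 0.0025 for Agrn on day 3, -0.026 to 0.15 for Lrp4 on day 7, -0.081 to 0.096 for Ache on day 14 and -0.093 to 0.10 for Lrp4 on day 21.

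With the replicate block 1, 2, 3 and 0 members were called on days 3, 7, 14 and 21, and the letter gave the same counts. Same-numbered samples correlated by -0.52 to 0.57 (median -0.003). Over all genes the count on day 21 was 502, 247 with no filter, 294 with quantile normalization, 49 with a common sum, 133 with own totals, 282 with read-based weights, 2471 with quality weights, 795 and 1233 with the blocks and 1477 with only the 2 groups. Leaving out 1 sample gave 190 at the lowest on day 21 and 1895 without day 14 replicate 5 on day 14 (2969 with it). Own totals called 6534 higher and 618 lower on day 3, 5348 and 424 on day 7, and 2275 and 288 on day 14; a common sum called 6868 and 322, 6304 and 209, and 1678 and 107. From day 3 to day 7 the count of 7 was 1892 with quality weights, 2265 without both samples and 1 to 17 in the other fits of all samples, and from day 7 to day 14 the count of 49 was 5 at the lowest (a common sum, or just the 2 groups). Depth limited Musk most, at 9 to 26 reads per control.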
